A study of Mus musculus with 4 samples.

Results

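Complement is a system of plasma and tissue proteins, and 9 of its genes were followed in the cochlear RNA of mice that had lost their outer hair cells (OHCs). They are the 3 chains of C1q (*C1qa*, *C1qb* and *C1qc*), the components *C2*, *C4b*, *C3* and *Cfb*, and *C3ar1* and *C5ar1*, the receptors of the anaphylatoxins C3a and C5a. Members were taken by gene name, and they account for 10 of the 39429 non-control probes of the array. *C3* has 2 probes and each of the other 8 genes has 1.

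The study asked how cochlear gene expression changes once OHCs are depleted with diphtheria toxin (DT). In *Prestin*-*hDTR* mice, named OHC-TRECK in the labels, a modified human HB-EGF that serves as the DT receptor is driven by the promoter of *Slc26a5* (prestin), a gene of OHCs, and mice of 1 transgenic line were used. All mice were of the C57BL/6J background (B6J in the labels) and 5 weeks old. Each genotype was taken untreated or 7 days after 50 μg/kg of DT, which makes 4 groups, called here WT- and WT+ for wild-type mice without and with DT and hDTR- and hDTR+ for the *Prestin*-*hDTR* mice without and with DT. DT kills cells that carry its receptor, so OHC loss is aimed at in hDTR+ mice only. The labels give 8 per group, 4 females and 4 males, as a pool of both sexes, and whether these are 8 animals or 8 cochleae is not settled by the sources used here. Each group was hybridised to 1 array of 1 channel (Cy3), with all 4 arrays on 1 slide. No group had a replicate, so no comparison between groups has a p-value, and only the spread between repeated spots of a probe and between the 3 arrays without OHC loss can be set beside a difference.

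C1q is the recognition molecule of the classical pathway, in which C1r and C1s cleave C4 and C2 to build a C3 convertase. Factor B (*Cfb*) takes the place of C2 in the convertase of the alternative pathway, and both convertases cleave C3, which leads on to C5. The pieces released, C3a and C5a, act on C3AR1 and C5AR1 of myeloid cells, and macrophages are a well-known source of C1q in tissues.

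Each member is read by probes of 60 bases. The probes of *C1qa* and *C1qb* are shown because the C1q chains carry the main difference, that of *Cfb* because its position in the genome is interrupted, and the second of *C3* because *C3* departs from the other members. Capitals are not used, since the whole probe is what hybridises.
C1qa: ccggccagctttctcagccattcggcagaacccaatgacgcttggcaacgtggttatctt
C1qb: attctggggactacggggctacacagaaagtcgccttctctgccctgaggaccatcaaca
Cfb: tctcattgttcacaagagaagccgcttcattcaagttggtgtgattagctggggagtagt
C3, second probe: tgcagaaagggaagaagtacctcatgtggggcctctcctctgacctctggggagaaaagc

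On the mm9 build used by the array files, all 10 probes lie on the minus strand. The C1q probes are at chr4:136452409-136452468 for *C1qa*, chr4:136436578-136436637 for *C1qb* and chr4:136445766-136445825 for *C1qc*. On chromosome 17 lie the probes of *C4b* (chr17:34865328-34865387), *Cfb* (chr17:34993502-34993858), *C2* (chr17:34999575-34999634) and *C3* (chr17:57343416-57343475 and chr17:57343678-57343737). The probe of *C3ar1* is at chr6:122798222-122798281 and that of *C5ar1* at chr7:16832243-16832302. The 60 bases of the *Cfb* probe cover 357 bases of the genome, so the probe joins separate stretches of it. Exons and introns on this build were not analysed here. Searched against the other probes of the array, the probes of *C1qa*, *C1qb*, *C1qc*, *C2*, *Cfb*, *C5ar1* and the first of *C3* shared no run of 14 bases with any of them. *C4b* has a near-identical copy, *C4a*, for which no probe was found by name, so the *C4b* signal may hold RNA of both.

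Levels are given as normalized log2 signal, which is log2 of the intensity after division by the 75th percentile of the array, so that 0 is that percentile. They can be compared between arrays for 1 probe but not between probes. On an array, 62.2% to 70.6% of the probes stood well above background by the scanner software's own mark, and none was saturated. Repeated spots of a probe on 1 array had a median SD of 0.051 to 0.063 (log2) among bright probes and of 0.15 to 0.16 among dim ones. Every array measured 8 of the 10 member probes well above background, while *C3ar1* was so on 3 and *C5ar1* only on the array of hDTR+ mice. A probe entered a comparison when either array of the pair measured it well above background. Where the other signal was not, it was raised to the lowest signal of its array that was, and the ratio is a bound. A dim signal already above that lowest signal was used as measured, so its ratio is not a strict bound. The label of the OHC-depleted group was borne out by OHC genes, since 4 of 7 OHC markers were lowered 2-fold or more in hDTR+ mice against each of the other arrays, and the median log2 ratio of the 7 was -2.37, -2.28 and -2.24 against hDTR-, WT- and WT+ mice.

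Of the 9 members, 8 had their highest signal in hDTR+ mice, and *C3* was the exception. These 8 include *C3ar1* and *C5ar1*, which were not well above background on every array. Of the 8 member probes that were so on all 4 arrays, 6 were highest in hDTR+ mice, where 32.9% of all such probes were. Against hDTR- mice, 5 of 9 were raised 2-fold or more (*C1qb*, *C1qc*, *Cfb*, *C3ar1* and *C5ar1*), where 2.49% of all 28082 probes compared were. Against WT- mice, 3 of 9 were (*C1qb*, *C3ar1* and *C5ar1*), with a background of 1.96%. Against WT+ mice, only *C1qb* reached 2-fold, with a background of 1.41%. *C5ar1* entered these comparisons only through the hDTR+ array, where it is high, so it had to differ. Among the 7 members well above background on all 4 arrays, 3, 1 and 1 were raised, with backgrounds of 1.23%, 0.903% and 0.629% over probes of that kind. No member was lowered 2-fold in these comparisons, where 1.35%, 1.95% and 1.83% of all probes were. *C1qb* was thus the 1 member raised 2-fold or more over each of the 3 other arrays, which held for 0.945% of all probes. The study screened these same arrays at 2-fold against the same 3 groups, so its list of raised genes is not independent of this call. This call depends on the background correction, since with normexp the log2 ratio of *C1qb* was 1.19 against hDTR-, 0.94 against WT- and 0.998 against WT+ mice, and no member then reached 2-fold over either wild-type group. At 1.5-fold, 7 of 9 members were raised over each of the 3 other arrays (all but *C2* and *C3*), where 2.4% of all probes were, and the background of the single comparisons at 1.5-fold was 4.8%, 4.53% and 3.95%. These 7 include *C5ar1*, which entered only through the hDTR+ array. The median log2 ratio of the 9 members was 1.07, 0.83 and 0.88 against hDTR-, WT- and WT+ mice, and that of all probes was -0.016, -0.031 and 0.0054. For the 7 members well above background on all 4 arrays it was 0.99, 0.73 and 0.88. All probes of that kind had -0.0079, -0.018 and 0.0065. The 3 comparisons share the array of hDTR+ mice, so their values are not independent of each other. RNA of the whole cochlea was measured, so more cells of a type and more RNA per cell cannot be told apart.

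**Figure D1:**
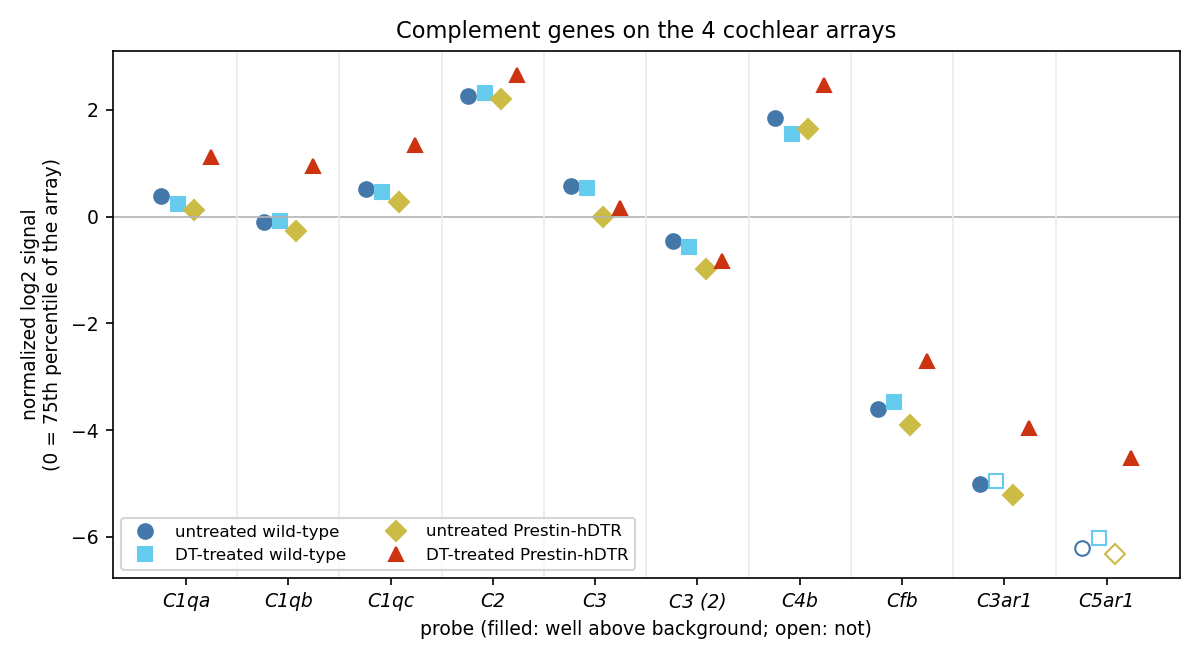
Normalized log2 signal of the 10 member probes on the 4 arrays, with 0 at the 75th percentile of each array. Each point is 1 array, open points were not well above background, and points may be compared within a column only (untreated wild-type is WT-, and so on). The hDTR+ array (triangles) is the highest for every gene but *C3*, whose highest array is WT- at both probes.

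The 3 chains of C1q, which are assembled into 1 protein, were all higher in hDTR+ mice, each by a factor near 2. *C1qa* had a log2 signal of 0.38 in WT-, 0.24 in WT+ and 0.13 in hDTR- mice, and of 1.12 in hDTR+ mice. For *C1qb* the values in that order were -0.10, -0.077, -0.28 and 0.95. For *C1qc* they were 0.51, 0.46, 0.26 and 1.34. In each chain the 3 arrays without OHC loss lay close together, over a range of 0.25 for *C1qa*, 0.20 for *C1qb* and 0.25 for *C1qc*, and the array of hDTR+ mice lay above the highest of them by 0.73, 1.03 and 0.83.

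As folds over hDTR-, WT- and WT+ mice, *C1qa* was 1.98, 1.66 and 1.84. *C1qb* was 2.34, 2.07 and 2.04, and *C1qc* was 2.10, 1.77 and 1.84. The fold of *C1qa* over hDTR- mice therefore lay just under the threshold of 2, and that of *C1qc* just over it. The mean fold of the 3 chains was 2.14, 1.83 and 1.90 in that order, with an SD between the chains of 0.12, 0.16 and 0.086 on the log2 scale. Before scaling between arrays, the intensity of *C1qb* was 2543, 2997 and 2491 on the arrays without OHC loss and 6026 on that of hDTR+ mice. Ranked by its ratio, *C1qb* stood at place 510 of 28082 probes over hDTR- mice, 487 of 26810 over WT- and 342 of 25394 over WT+ mice.

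The probe of *C1qc* is printed at 10 spots of each array, so its technical error can be read directly. On the array of hDTR+ mice the 10 spots lay between 1.28 and 1.45, with an SD of 0.047. The highest spot on any other array was 0.61, in WT- mice, and the SD on those arrays was 0.056 to 0.074. The spots of hDTR+ mice thus did not overlap those of the others, which bounds the error of the array measurement and says nothing on the spread between animals. The share of other repeated probes that separate in this way is not given here, so this does not set *C1qc* apart from them.

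**Figure D2:**
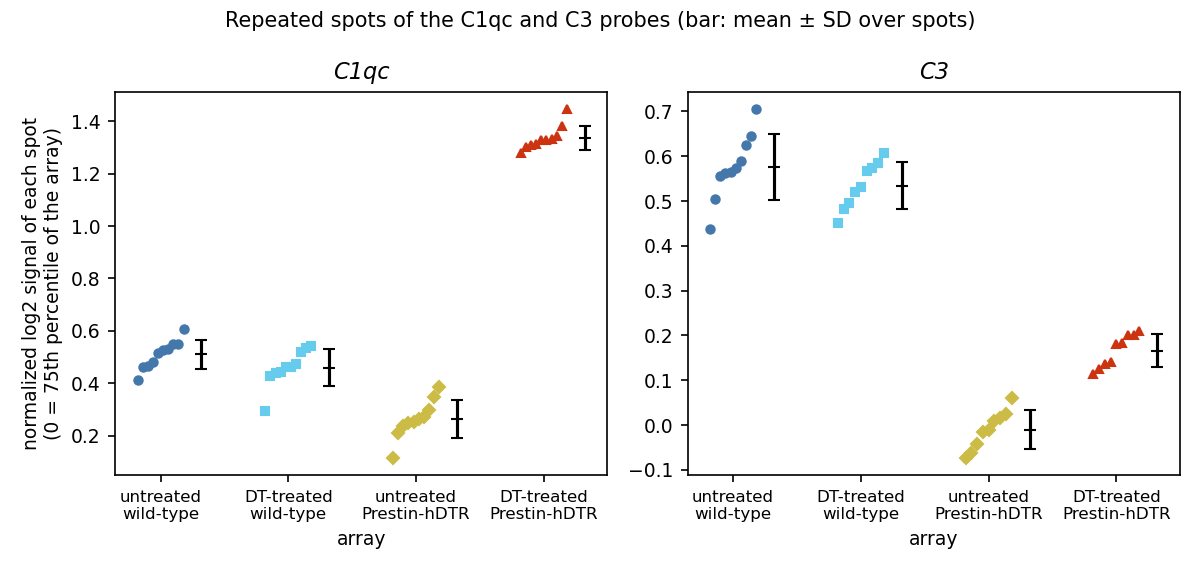
Normalized log2 signal of each repeated spot of the *C1qc* probe and of the first *C3* probe, with 10 spots per array for *C1qc* and 9 or 10 for *C3*. Bars give the mean and SD over spots of 1 array, which is technical error only. For *C1qc* the hDTR+ spots (1.28 to 1.45) lie above all others, and for *C3* both wild-type arrays lie above both *Prestin*-*hDTR* arrays.

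*C4b*, which follows C1q in the classical pathway, was also highest in hDTR+ mice. Its log2 signal was 1.85 in WT-, 1.55 in WT+ and 1.64 in hDTR- mice, against 2.47 in hDTR+ mice. This made it 1.78-fold higher than in hDTR-, 1.53-fold higher than in WT- and 1.90-fold higher than in WT+ mice, all under 2-fold. The 3 other arrays spanned 0.31, with the lowest value in WT+ mice. *C2*, whose product joins C4b in the convertase, differed less. Its values in the same order were 2.26, 2.32, 2.20 and 2.66, which gave 1.37-, 1.31- and 1.26-fold over hDTR-, WT- and WT+ mice. The other arrays spanned 0.12 for *C2*, and the array of hDTR+ mice lay 0.34 above the highest of them.

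*C3*, the component on which all pathways converge, did not follow the others. Its first probe had a log2 signal of 0.58 in WT-, 0.54 in WT+, -0.010 in hDTR- and 0.17 in hDTR+ mice. The second probe gave -0.47, -0.58, -0.99 and -0.83. At both probes, then, the wild-type arrays were the higher pair whatever the treatment, with WT- the highest, as for 31.1% of all probes well above background on all 4 arrays. hDTR+ mice were 1.13-fold above hDTR- mice by the first probe and 1.12-fold by the second, and their log2 ratio was -0.41 and -0.36 against WT- and -0.37 and -0.25 against WT+ mice. The 2 probes differed from each other by at most 0.12 in these ratios. The largest *C3* difference was between the 2 untreated groups, with a log2 ratio of -0.59 and -0.52 for hDTR- over WT- mice, beyond the 5th percentile of all probes (-0.42). Spots of the first probe ranged from -0.073 to 0.060 in hDTR- mice and from 0.44 to 0.70 in WT- mice.

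*Cfb*, the serine protease of the alternative pathway, was dimmer but well above background on every array. Its log2 signal was -3.61 in WT-, -3.48 in WT+, -3.90 in hDTR- and -2.70 in hDTR+ mice, from intensities of 223, 284, 202 and 481. The fold was 2.31 over hDTR-, 1.89 over WT- and 1.72 over WT+ mice. Its 3 other arrays spanned 0.43, the widest range among the members other than *C3*, and hDTR+ mice lay 0.78 above the highest.

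Of the 8 member probes well above background on all 4 arrays, 6 lay in hDTR+ mice above the highest other array by more than the range of the 3 others. They were the probes of *C1qa*, *C1qb*, *C1qc*, *C2*, *C4b* and *Cfb*. Among all 23688 probes of this kind the share was 15.4%, and 32.9% had their highest value on that array.

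The anaphylatoxin receptors gave weak signals. *C3ar1* had intensities of 84.7 in WT-, 102 in WT+, 80.8 in hDTR- and 199.9 in hDTR+ mice, and that of WT+ mice was not well above background. It was 2.39-fold higher than in hDTR-, 2.06-fold higher than in WT- and 1.99-fold higher than in WT+ mice. The last value uses the dim signal of WT+ mice as measured. *C5ar1* had intensities of 37.0, 48.7, 37.9 and 136.5 in the same order, of which only the last was well above background. The fold was at least 2.66 over WT- and at least 1.95 over WT+ mice. Over hDTR- mice it was 3.49, with their dim signal used as measured, so that value is not a strict bound. These folds rest on the dim end of each array, where the lowest log2 signal counted as well above background ranged from -6.39 to -5.44, so their order is not an order of the groups. They depend on the background correction. With normexp the log2 ratios against hDTR-, WT- and WT+ mice were 0.91, 0.71 and 0.81 for *C5ar1* and 0.86, 0.62 and 0.68 for *C3ar1*, all under 2-fold.

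**Figure D3:**
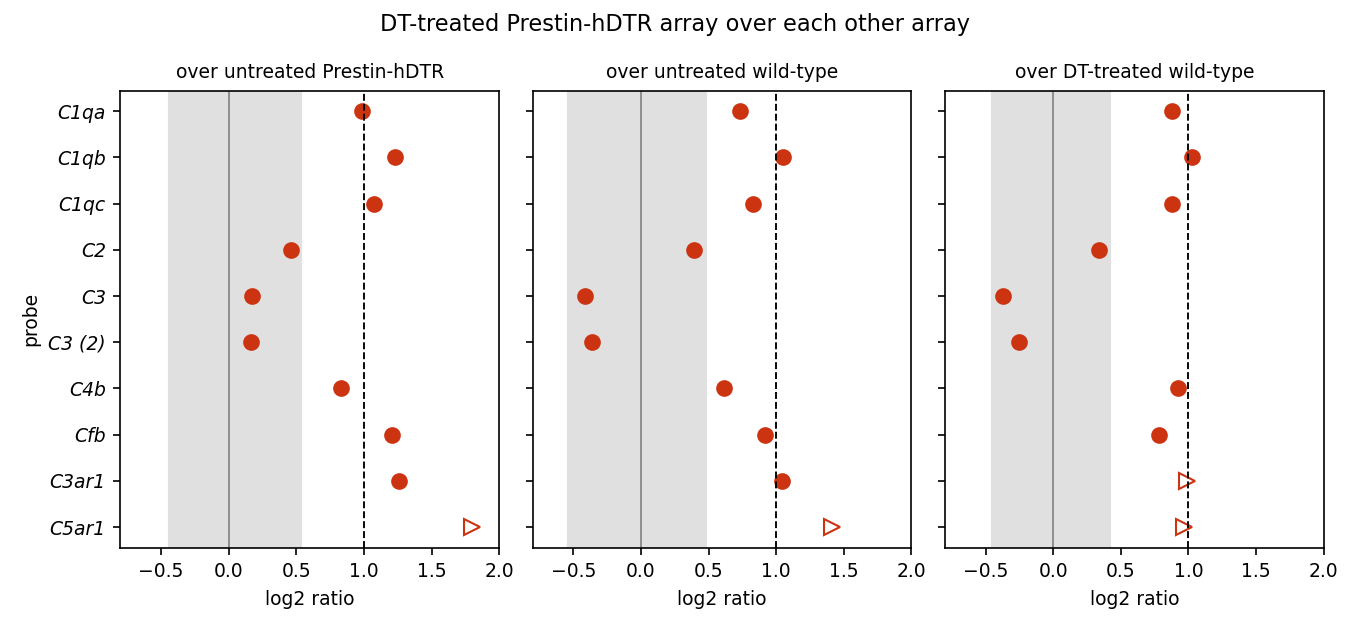
Log2 ratio of hDTR+ mice over each of the 3 other arrays for the 10 member probes. Filled points were well above background on both arrays and open triangles on the hDTR+ array only. The dashed line is 2-fold and the grey band holds the middle 90% of all probes measured on both arrays. All members but *C2* and *C3* lie to the right of the band in each panel.

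The arrays without OHC loss were also compared with each other. *C5ar1* could be compared in neither of these comparisons, and *C3ar1* only between hDTR- and WT- mice. Between hDTR- and WT- mice, 0 of the 8 members that could be compared were raised or lowered 2-fold (background 1.01% raised and 2.32% lowered). All 8 were nevertheless on the lower side in hDTR- mice, with a median log2 ratio of -0.23 and a range of -0.59 (*C3*) to -0.064 (*C2*), where 52.8% of all probes were lower and their median was -0.0099. The 18 macrophage markers measured were all on the lower side in the same comparison, with a median of -0.21. Between WT+ and WT- mice, 0 of the 7 members that could be compared were raised or lowered 2-fold (background 1.46% raised and 1.09% lowered). With so few members, counts of 0 do not depart from these backgrounds. Their median was -0.043, with *C4b* lowest at -0.31 and *Cfb* highest at 0.14. The difference between DT-treated and untreated mice was thus larger in *Prestin*-*hDTR* than in wild-type mice for *C1qa*, *C1qb*, *C1qc*, *C4b*, *Cfb* and *C3ar1*, by 1.07 to 1.20 on the log2 scale, by 0.40 for *C2*, and by 0.22 and 0.27 at the probes of *C3*. Of these, the value for *C3ar1* uses the dim signal of WT+ mice as measured. With 1 array per group these differences could not be tested.

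The other genes of the complement system were compared as a list of 48, of which 46 have a probe and 36 passed the background mark on 1 array or more. Against hDTR- mice, 2 of the 31 that could be compared were raised 2-fold (*Itgax* and *Itgb2*) and 1 was lowered (*Hc*, the gene of C5), where 2.49% of all probes were raised and 1.35% lowered. Against WT- mice 0 of 32 and against WT+ mice 0 of 33 were raised. In both, 1 was lowered (*Fcnb*, a ficolin of the lectin pathway), by a bound, since it was dim in hDTR+ mice. Counts of 0 are close to the backgrounds of 1.96% and 1.41% raised. Counts of 1 are close to those of 1.95% and 1.83% lowered. The median log2 ratio of the genes compared was 0.11, 0.050 and 0.073 in the 3 comparisons, against 1.07, 0.83 and 0.88 for the members.

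Among the initiators, the proteases that work with C1q differed less than C1q itself. *C1ra* had log2 signals of -0.37, -0.39 and -0.58 in WT-, WT+ and hDTR- mice and of -0.13 in hDTR+ mice. The array of hDTR+ mice was the highest for *C1ra*, *C1rb*, *C1s1* and *C1s2*, with log2 ratios over hDTR- mice of 0.45, 0.60, 0.35 and 0.34 and none above 0.53 against either wild-type group. *C1rb*, with 0.60, 0.51 and 0.53, had the highest ratio of the initiators in all 3 comparisons. At the other end, *Fcnb* was not well above background on either *Prestin*-*hDTR* array, and its log2 ratio was at most -1.03 against WT- and at most -1.38 against WT+ mice. *Masp1*, a protease of the lectin pathway, had -0.69 against hDTR- mice but 0.30 against WT- and 0.32 against WT+ mice.

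Regulators, which restrain the cascade, had median log2 ratios of 0.032, 0.0086 and 0.0055 in the 3 comparisons. *Serping1*, the inhibitor of C1r and C1s, was the highest, with a log2 signal of 2.50, 2.41 and 2.28 on the arrays of WT-, WT+ and hDTR- mice and 3.01 in hDTR+ mice, which gave ratios of 0.73, 0.51 and 0.61. *Vtn* (vitronectin) had the lowest ratio measured on both arrays, with -0.20, -0.58 and -0.19. *Cd46*, a membrane cofactor, was not well above background in hDTR+ mice, and its ratio of at most -0.56 against WT- mice cannot be ranked with that of *Vtn*. Of the alternative and terminal components, *Cfp* (properdin) was highest in WT+ mice, with ratios of 0.52, 0.23 and -0.14. The signals of *Cfd*, *C7*, *C8a*, *C8b* and *C9* were not well above background on any array, and *Hc* had a ratio of at most -1.09, -0.73 and -0.68.

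Among the other receptors, *Itgax* (an α chain of integrin receptors for cleaved C3) had log2 ratios of 1.34, 0.88 and 0.70 against hDTR-, WT- and WT+ mice. *Itgb2*, the β chain that pairs with it, had 1.17, 0.51 and 0.26. *Itgam*, the α chain of complement receptor 3, was in contrast lowest in hDTR+ mice, with ratios of -0.24, -0.75 and -0.35. These are of the brightest of its 3 probes, and the others are not given here. *C5ar2*, the second receptor of C5a and a neighbour of *C5ar1* in the genome, had 0.34, 0.35 and 0.29. The lowest ratio among the receptors against WT+ mice was that of *Cr2*, at -0.40. Genes that share only the C1q domain, such as the C1q and TNF related proteins, did not reach 2-fold by their measured ratios or bounds, and the medians of the 11, 13 and 9 that could be compared were -0.10, -0.18 and -0.045. The highest of them was *C1qtnf1*, at 0.36, 0.40 and 0.54, and *Cbln1* and *C1qtnf2* had ratios down to -0.53 and -0.71. The lowest is not known, since *Cbln2* and *Cbln4* were not well above background in hDTR+ mice and gave at most -0.30 and -0.16 against WT- mice.

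**Figure D4:**
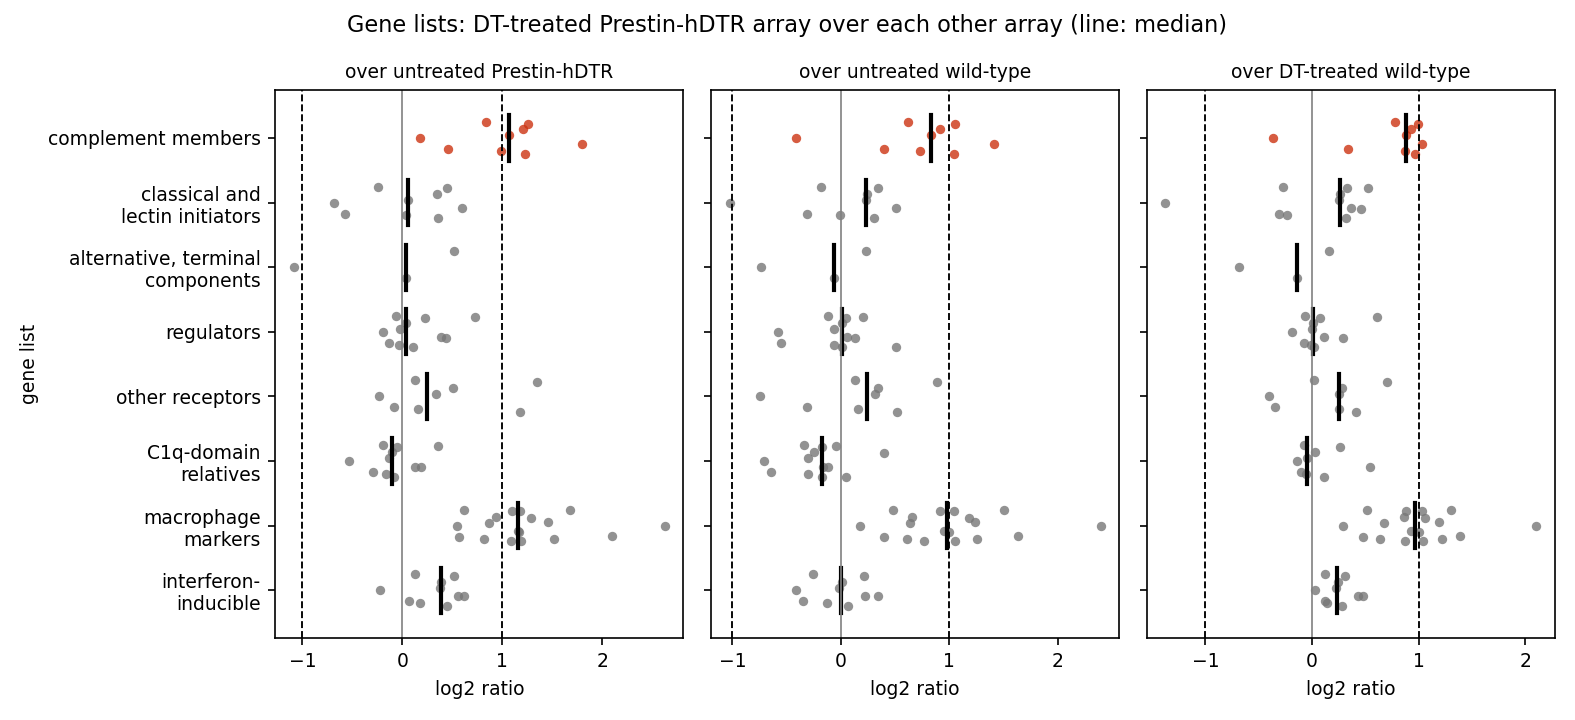
Log2 ratio of hDTR+ mice over each of the 3 other arrays, 1 point per gene, for the 9 members and for 7 other gene lists. Thick lines are medians and dashed lines 2-fold. The members' medians (1.07, 0.83 and 0.88) lie beside those of macrophage markers (1.16, 0.98 and 0.96). Medians of the initiators, alternative and terminal components, regulators and other receptors lie between -0.14 and 0.26. Without *C3ar1* and *C5ar1* the members' medians are 0.99, 0.73 and 0.88.

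Markers of macrophages moved with the members. Of 20 markers, 18 were well above background on all 4 arrays, and *Cd163* and *Spi1* were not on any. All 18 were on the higher side in hDTR+ mice in each of the 3 comparisons, with medians of 1.16, 0.98 and 0.96. Among all probes well above background on all 4 arrays, 32.9% were highest in hDTR+ mice. Of the markers 12, 9 and 8 were raised 2-fold, where 1.23%, 0.903% and 0.629% of probes of that kind were. *Itgam*, also a gene of macrophages and other myeloid cells but listed here as a complement receptor, ran the other way by its brightest probe, with -0.24, -0.75 and -0.35. The highest was *Lgals3* (galectin-3), with ratios of 2.63, 2.39 and 2.10. The lowest were *Mrc1* with 0.55 and 0.29 against hDTR- and WT+ mice, and *Fcgr1* with 0.17 against WT- mice. Summed over the 18 markers, the level relative to the 75th percentile was 27.7, 26.8 and 23.5 in WT-, WT+ and hDTR- mice and 52.8 in hDTR+ mice. The mean log2 ratio of the C1q chains minus the median of the markers was -0.066, -0.10 and -0.036 in the 3 comparisons. Of these markers, the study picked *Lgals3* and *Mpeg1* from these same arrays, so their direction here is not independent evidence. The study also reports both as significantly raised in hDTR+ mice by qRT-PCR of cochlear RNA. The part of macrophage RNA in the result was not tested.

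Markers of other blood cells had their highest summed level in WT+ mice. That of 13 neutrophil markers was 67.1, 88.1, 39.2 and 46.1 in WT-, WT+, hDTR- and hDTR+ mice. Their median log2 ratio was 0.70 against hDTR- mice but -0.37 and -1.24 against the wild-type groups. Erythroid markers had medians of 0.59, 0.53 and -1.14 and B cell markers of 0.24, -0.030 and -1.07. All 3 lists were thus lower in hDTR+ than in WT+ mice by their medians, where every member but *C3* was higher. Of 8 hepatocyte markers, liver being the main source of plasma complement, 6 were not well above background on any array and the other 2 had medians of -0.24, -0.20 and -0.16. Interferon-inducible genes (10 measured) were not raised 2-fold in any comparison, with medians of 0.38, -0.0031 and 0.23.

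Among 18233 genes well above background on all 4 arrays, the profile of each gene, centred on its own mean over the 4 arrays, was set against the mean profile of the C1q chains. The 5 genes other than members with the smallest root mean square difference were *Scimp* (0.013), *Ch25h* (0.031), a transcript known only by an Ensembl identifier (0.035), *Trem2* (0.038) and *Tyrobp* (0.049). *Trem2* is a receptor of macrophages and microglia, and *Tyrobp* is its signalling adaptor. Over the arrays of WT-, WT+, hDTR- and hDTR+ mice, *Trem2* had log2 signals of 0.22, 0.14, 0.013 and 1.17. Of the members, *C1qc* differed from the mean of the chains by 0.020, *C1qa* by 0.053 and *C1qb* by 0.066, followed by *Cfb* (0.095), *C4b* (0.13), *C2* (0.25) and *C3* (0.53). With 4 arrays such likeness describes these pools only.

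**Figure D5:**
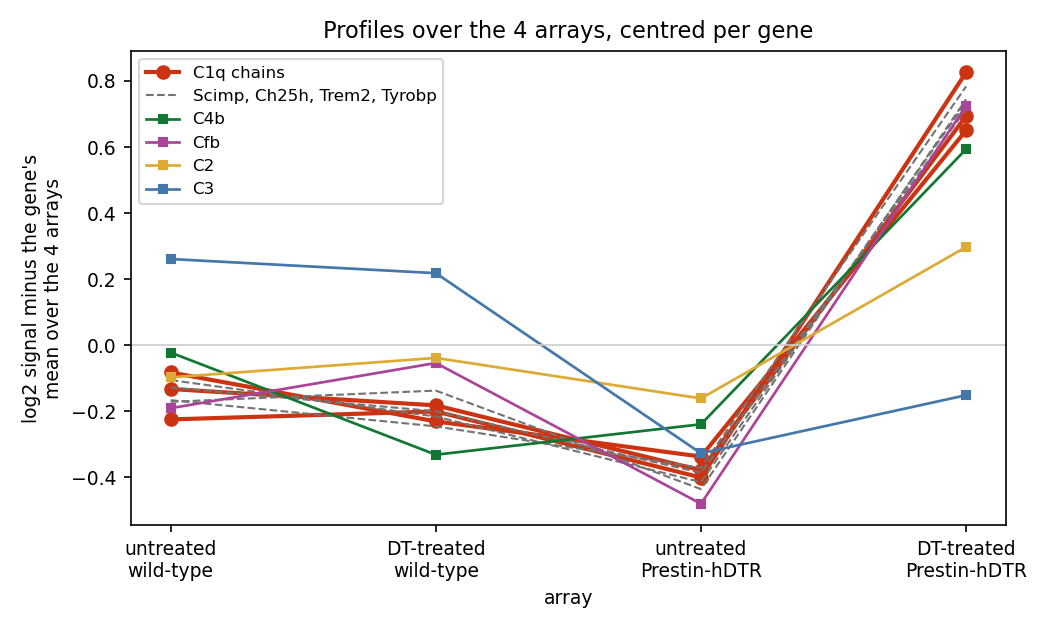
Log2 signal minus each gene's mean over the 4 arrays, for 7 members and for 4 of the genes most like the C1q chains. Lines join the values of 1 gene, and the order of the arrays is arbitrary. The C1q chains, *Cfb* and *C4b* peak in hDTR+ mice together with *Scimp*, *Ch25h*, *Trem2* and *Tyrobp*, *C2* peaks there less, and *C3* is highest in WT- mice.

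Position in the genome was compared as well. By gene order in RefSeq (GRCm38), *C1qa*, *C1qc* and *C1qb* lie next to each other on chromosome 4 and *Cfb* next to *C2* on chromosome 17, yet *Cfb* and *C2* differed in size of change, with log2 ratios of 1.21 and 0.46 over hDTR- mice. Around the members, the nearest 3 genes on each side that were well above background on all 4 arrays came to 35. Of these 3 were raised 2-fold against hDTR- mice (*Slc44a4*, *Vav1* and *Clec4a3*), 1 against WT- (*Slc44a4*) and 0 against WT+ mice. Among all probes well above background on all 4 arrays, 1.23%, 0.903% and 0.629% were raised. Of the neighbours 0 were lowered, where 1.35%, 1.95% and 1.83% of all probes compared were. Those shares are of a wider set that also holds probes dim on some arrays, so they are not a like background. Their medians were 0.019, -0.039 and 0.043. None of the 6 flanking the C1q genes was among those raised, but so few genes cannot be told from these shares.

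Promoter windows of 300 bases, from 250 before to 50 after the gene start, were given in RefSeq (GRCm38.p6) for *C1qb*, *C1qc*, *C3*, *C3ar1* and *C5ar1*. GAGGAA, the core of sites for the myeloid factor PU.1, was found on 1 strand or the other in 28.3% of 32851 windows, TTCNNNGAA (STAT) in 8.30% and GGGNNTTCC (NF-κB) in 5.82%. GAGGAA was found in 2 of the 5 members' windows, at -30 in *C1qb* and, as its reverse complement, at -193 in *C1qc*, and the other motifs in 0 of the 5. The parts of both C1q windows before the gene start are shown, read on the minus strand, because these genes moved together, with the match in capitals. They are chr4:136886201-136886450 for *C1qb* and chr4:136892915-136893164 for *C1qc*.
C1qb promoter: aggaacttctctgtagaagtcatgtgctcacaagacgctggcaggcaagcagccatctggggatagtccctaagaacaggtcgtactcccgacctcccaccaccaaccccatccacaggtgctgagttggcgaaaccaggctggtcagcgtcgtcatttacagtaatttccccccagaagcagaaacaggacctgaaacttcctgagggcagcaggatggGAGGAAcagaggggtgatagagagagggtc
C1qc promoter: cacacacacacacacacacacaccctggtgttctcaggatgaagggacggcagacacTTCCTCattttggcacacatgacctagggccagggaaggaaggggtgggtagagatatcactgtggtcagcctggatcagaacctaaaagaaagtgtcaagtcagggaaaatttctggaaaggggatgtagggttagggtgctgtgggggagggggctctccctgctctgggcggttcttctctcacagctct
A match of so short a motif is a description of the letters, and its share among 5 windows is too small a number to set against that of all windows.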

How the data were processed

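RNA of 4 pools of cochleae was measured on 4 arrays. The intensity the authors deposited is linear and was written by Agilent Feature Extraction 11.5.1.1, which subtracted a background surface fitted over the array and divided out a trend within it, with no scaling between arrays. A deposited table of the authors' values (a ratio) gives that intensity over a single constant for each array and served as an alternative. Control spots and 149 to 228 outlier spots per array were left out, spots of a probe were averaged, a mark held when it held for over 0.5 of the spots, and log2 was taken after division by the 75th percentile of the array. A signal not well above background was raised to the lowest signal that was, unless it was higher itself, and a bound against the direction of the marks gave no fold. Probes changed 2-fold or more were called. With 1 array per group no test was made, and precision is limited by the number of arrays.

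The members, gene lists and named genes (all members, complement genes changed 2-fold, the extremes of each complement list and of the macrophage list, and the 5 most alike, while other lists are given by their medians) were chosen with earlier results of these data known. Lists took the brightest probe of a gene. Through RefSeq, 29803 probes were named by symbol, 1635 by accession and 295 by synonym, and 7696 kept the name in the files. The alternatives were normexp background correction (limma 3.58.1 in R 4.3.3, offset 50), scaling to the median, quantile normalization, no floor, all 4 arrays well above background, the deposited table, all probes of a gene averaged, and a threshold of 1.5-fold. The steps were tested on simulated data. Python 3.11.15 with numpy 2.4.6, pandas 2.3.3 and matplotlib 3.10.9 was used.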

Additional observations from a re-analysis of the deposited data

Results flagged for a closer look

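For 4 members the difference between DT-treated and untreated mice ran one way in wild-type and the other way in *Prestin*-*hDTR* mice, with 1 array per group, so that the difference between the genotypes was not tested. For *C1qa* the log2 ratio of treated over untreated was -0.15 in wild-type and 0.99 in *Prestin*-*hDTR* mice, a difference of 1.14. For *C1qc* it was -0.050 and 1.07, a difference of 1.12. For *C4b* it was -0.31 and 0.83, a difference of 1.14. For *C3* it was -0.043 and 0.18 at the first probe and -0.11 and 0.16 at the second, differences of 0.22 and 0.27. In wild-type mice the values of *C1qc* (-0.050) and of the first *C3* probe (-0.043) lay at the median of all probes in that comparison (-0.036) and within the SD of repeated spots, so these have no direction there.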

How the results depend on the processing

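No paired analysis was possible because each group has 1 array. Of the member ratios, 113 were changed in value by an alternative, all 113 kept their sign and 10 crossed 2-fold, 7 of them under normexp. Outside *C3ar1* and *C5ar1* no ratio moved by more than 0.17. With normexp, which adds an offset and so draws dim signals together, the median ratio was 0.91 against hDTR- and 0.71 against WT- mice, *C3ar1* and *C5ar1* were under 2-fold against hDTR- mice, and 0 members were raised 2-fold against either wild-type group or over all 3 other arrays. With median scaling or without the floor, 2 were raised against WT+ mice and over all 3. With probes well above background on all 4 arrays only, which leaves out *C3ar1* and *C5ar1*, 3 were raised against hDTR- and 1 against WT- mice, where the median was 0.73. At 1.5-fold, 7 were raised against each wild-type group and over all 3. Over all probes, those raised 2-fold against hDTR- and WT- mice numbered 700 and 525, but 372 and 227 with normexp. They numbered 291, 214 and 149 over hDTR-, WT- and WT+ mice with the filter on all 4 arrays, and without the floor 603, in place of 359, against WT+ mice. Signal over background limits *C5ar1* to lower bounds against both wild-type groups and to a ratio over a dim signal against hDTR- mice.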
